A study of Mus musculus with 12 samples.

Results

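A group of 10 Notch pathway genes was followed across 4 populations of sorted cells from the large arteries of the mouse embryo. They were 3 receptors (Notch1, Notch2 and Notch4), 3 ligands (Dll4, Jag1 and Jag2) and 4 target genes (Hey1, Hey2, Heyl and Hes1). The 10 were taken by gene symbol from the 33531 genes of the deposited expression table, and all 10 passed the filter on low values that left 13278 genes for testing.

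RNA sequencing was made from poly(A) RNA of hematopoietic cluster cells (HC) and of arterial endothelial cells (EC) at embryonic day 11.5, with 3 pools in each of the groups HC GFP+, HC GFP−, EC GFP+ and EC GFP−, 12 libraries in all. Clusters are groups of budding blood cells on the inner artery wall, and they were sorted as CD31+ CD144+ ESAM+ cells that were c-Kit+, whereas the endothelial cells carried the same 3 markers and were c-Kit−. Every embryo was of B6129S background, from C57BL/6 x 129S1/SVImJ F1 mothers and Tg(Ly6a-GFP) fathers. The reporter, in which sequences of the Ly6a (Sca-1) gene drive GFP, thus came from the fathers of the embryos of all 4 groups. GFP− cells are cells in which GFP was not detected, and whether every embryo carried the reporter is not given here. The dorsal aorta, umbilical and vitelline arteries of 122 embryos gave 53000 HC GFP+ cells, 413000 HC GFP− cells, 377000 EC GFP+ cells and 791000 EC GFP− cells, divided into 3 pools a population, and the number of cells or embryos in a pool is not stated. The study, by its title, asked whether CD27 marks the stem cells among them. The comparisons used here are GFP+ against GFP− within each cell type, and HC against EC at each GFP state.

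Notch receptors are membrane proteins that are cut when a Delta-like or Jagged ligand on a neighbouring cell binds them. The freed intracellular domain enters the nucleus, joins the DNA-binding protein RBPJ and switches on target genes, of which the Hes and Hey families of transcriptional repressors are the best known. In the embryonic vasculature the pathway is known for its part in arterial identity, and in the mouse aorta both Notch1 and Jag1 are known to be needed for normal formation of blood stem cells.

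Values are FPKM, fragments per kilobase of transcript scaled to the mapped fragments of the library, and fold changes are differences of log2(FPKM + 1), which understate the change of genes near or under 1 FPKM. The sum of FPKM per library lay between 555675 and 691948, and 12147 to 12779 genes reached 1 FPKM. Libraries of the same population correlated at 0.956 to 0.979 and libraries of different populations at 0.899 to 0.968. The 6 endothelial markers had a mean of 1 FPKM or more in every population, with a summed level of 1583 to 1789 in HC GFP+, 1216 to 1658 in HC GFP−, 2334 to 2448 in EC GFP+ and 1458 to 1838 in EC GFP−. The 7 hematopoietic markers summed to 101 to 128.5 in HC GFP+ and 39.9 to 43.5 in HC GFP−, against 26.5 to 40.3 in EC GFP+ and 24.4 to 36.5 in EC GFP−, so the HC GFP− libraries reached down to the highest EC GFP+ library. Ptprc, which encodes the leukocyte antigen CD45, separated the cell types. Its means were 10.3 and 5.53 FPKM in HC GFP+ and HC GFP−, against 0.474 and 0.0922 FPKM in EC GFP+ and EC GFP−. Runx1 and Myb also had higher means in both HC groups. By its means Itga2b went the other way, at 9.08 and 6.80 FPKM in the HC groups against 11.1 and 10.9 in the EC groups. Spn and Gfi1 were higher in EC GFP+, at 1.94 and 2.95 FPKM, than in HC GFP−, at 0.673 and 0.565. Kit, the gene of the sort marker, averaged 35.5 and 21.4 FPKM in the HC groups against 14.003 and 16.3 FPKM in the EC groups, and so was present in RNA of the cells sorted as c-Kit−.

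Promoter sequence is shown for Hey2, Jag1 and Dll4, the target and ligands whose levels separated the populations most clearly in different ways. Each line gives the 250 bases before the gene's start on its own strand, 5′ to 3′, from RefSeq on build GRCm38.p6. The table of promoters held 7 of the 10 genes, the others being Hey1, Heyl and Hes1. Capitals mark the letters CGTGGGAA on either strand, a form of the site that RBPJ is known to bind, which contains the shorter forms GTGGGAA and TGGGAA within it.
Hey2 (chr10:30842784-30843033, minus strand): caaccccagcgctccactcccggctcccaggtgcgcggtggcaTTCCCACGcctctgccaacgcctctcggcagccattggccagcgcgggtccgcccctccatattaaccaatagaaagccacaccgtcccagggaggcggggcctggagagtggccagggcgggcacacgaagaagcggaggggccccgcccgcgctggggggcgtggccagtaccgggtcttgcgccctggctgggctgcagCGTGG
Jag1 (chr2:137116521-137116770, minus strand): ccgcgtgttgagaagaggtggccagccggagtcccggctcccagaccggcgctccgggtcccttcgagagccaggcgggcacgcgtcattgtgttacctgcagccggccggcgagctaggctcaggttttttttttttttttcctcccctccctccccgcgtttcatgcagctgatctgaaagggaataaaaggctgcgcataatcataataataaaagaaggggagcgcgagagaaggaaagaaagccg
Dll4 (chr2:119325534-119325783, plus strand): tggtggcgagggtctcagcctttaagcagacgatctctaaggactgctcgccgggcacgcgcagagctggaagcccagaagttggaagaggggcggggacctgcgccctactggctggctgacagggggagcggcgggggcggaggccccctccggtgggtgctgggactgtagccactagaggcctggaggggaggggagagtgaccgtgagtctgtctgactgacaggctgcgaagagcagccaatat

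In windows of 300 bases, from 250 before to 50 after the start, CGTGGGAA was found in 0.734% of 32851 promoters, GTGGGAA in 6.38% and TGGGAA in 25.6%, counting both strands. Of the 7 genes, Hey2 was the one that held any of the 3. It held CGTGGGAA at 2 places, on the opposite strand at bases -207 to -200 and on the gene strand at bases -5 to 3 counted from the start, so that the end of the second lies past the printed run. There were 2 or more copies in 4 of the 32851 promoters, 0.0122%. The printed Hey2 run was 71.6% G or C, Dll4 65.6% and Jag1 57.2%, against a median of 52.4% over all promoters. A match is a description of the letters and says nothing of binding in these cells.

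**Figure D1:**
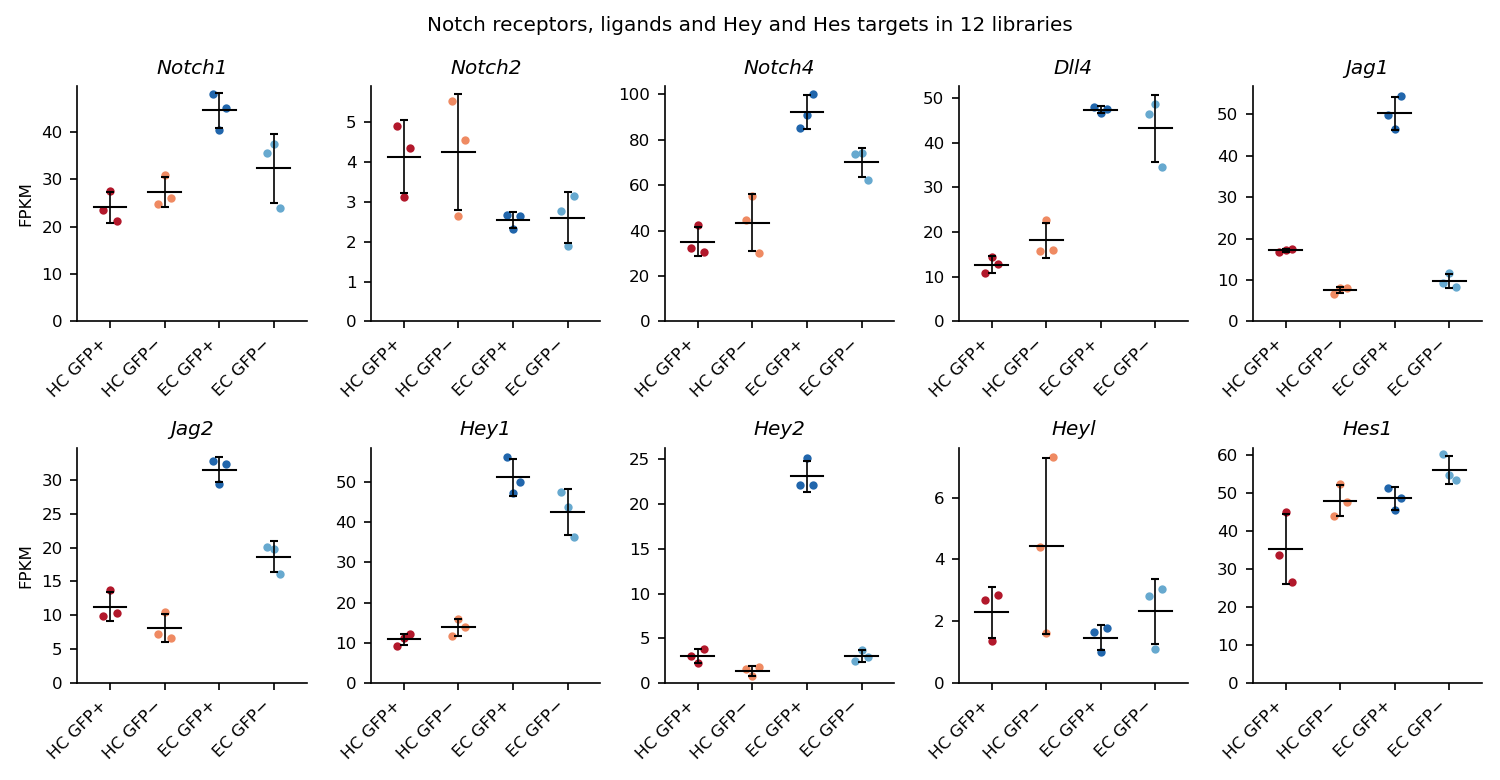
FPKM of the 10 genes (vertical axes, each from 0) in each of the 12 libraries, with points for the 3 libraries of each population, a wide bar for their mean and error bars of 1 SD. The EC GFP+ libraries lie above all others in Jag1, Hey2, Jag2, Notch4 and Notch1, with the widest gaps to EC GFP− in Jag1 and Hey2. In Dll4, Hey1, Jag2 and Notch4 every endothelial library lies above every cluster library.

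Of the receptors, Notch4 and Notch1 were the abundant ones and Notch2 was low in every population. Notch4, a receptor known mainly from endothelium, had 32.1, 42.5 and 30.6 FPKM in HC GFP+ and 44.6, 55.3 and 30.3 in HC GFP−, against 85.2, 90.9 and 100.05 in EC GFP+ and 73.6, 74.0 and 62.4 in EC GFP−. Every endothelial library lay above every cluster library, and the EC GFP+ libraries lay above the EC GFP− ones, while both HC groups overlapped. In pools of cells such as these, fewer cells of a type and less RNA per cell cannot be told apart. Notch1 had 23.5, 27.6 and 21.1 FPKM in HC GFP+ and 24.8, 30.9 and 26.0 in HC GFP−, against 47.9, 40.4 and 45.002 in EC GFP+ and 35.5, 37.5 and 23.9 in EC GFP−. Its EC GFP+ libraries stood above all others, and the remaining 3 groups overlapped. Notch2 ranged from 1.89 to 5.54 FPKM over the 12 libraries, with means of 4.14 ± 0.91 in HC GFP+ and 4.26 ± 1.47 in HC GFP−, against 2.55 ± 0.19 in EC GFP+ and 2.60 ± 0.64 in EC GFP− (SD, n = 3 each). Unlike Notch1 and Notch4, Notch2 had its higher means in clusters, with groups next to each other in the order of means overlapping at each step. Between cell types, HC GFP+ at 3.14 to 4.92 FPKM did not overlap EC GFP+ at 2.33 to 2.68, while HC GFP− and EC GFP− overlapped.

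No receptor passed the test between GFP+ and GFP− cells of either type, where the threshold was a limma adjusted p of 0.05 over all 13278 genes. Over all of these, 2.98% were higher and 1.28% lower in HC GFP+ than in HC GFP−, and 6.96% higher and 6.51% lower in EC GFP+ than in EC GFP−. At an unadjusted p under 0.05 there was 1 such result, Notch1 in endothelium. In clusters the log2 fold changes, GFP+ over GFP−, were -0.17 for Notch1, -0.01 for Notch2 and -0.27 for Notch4, with adjusted p-values of 0.654, 0.992 and 0.531. In endothelium they were 0.47 for Notch1, -0.01 for Notch2 and 0.39 for Notch4, with adjusted p-values of 0.0795, 0.991 and 0.203. The Notch1 value in endothelium passed the threshold when libraries were scaled to an equal FPKM sum (0.67, adjusted p = 0.0294), and also without the second EC GFP− library (0.59).

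The ligands differed in their patterns. Jag1, a ligand of the Jagged type, was higher in GFP+ cells of both types, and among GFP+ cells it was higher in endothelium than in clusters. It had 16.8, 17.3 and 17.4 FPKM in HC GFP+ against 6.74, 8.04 and 7.98 in HC GFP−, and 49.8, 46.4 and 54.4 FPKM in EC GFP+ against 9.28, 11.7 and 8.22 in EC GFP−. The 4 populations did not overlap in Jag1 at any step, in the descending order EC GFP+, HC GFP+, EC GFP− and HC GFP−. GFP+ cluster cells thus lay above GFP− endothelium. The share of all tested genes that separate in this way was not counted. Jag1 was 2.26-fold higher in HC GFP+ than in HC GFP− by mean FPKM (log2 fold change 1.08 ± 0.12 SE, adjusted p = 0.00053) and 5.16-fold higher in EC GFP+ than in EC GFP− (2.27 ± 0.12 SE, adjusted p = 1.15e-06).

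Dll4, the Delta-like ligand most tied to arterial endothelium, instead followed cell type. It had 10.9, 14.5 and 12.8 FPKM in HC GFP+ and 15.8, 22.7 and 15.9 in HC GFP−, against 48.1, 46.6 and 47.4 in EC GFP+ and 46.4, 48.6 and 34.7 in EC GFP−. The lowest endothelial library was above the highest cluster library, the EC groups overlapped, and the 3 HC GFP+ libraries all lay below the 3 HC GFP− ones. The log2 fold change of Dll4 was -0.47 in clusters (adjusted p = 0.153) and 0.14 in endothelium (adjusted p = 0.601), neither past the threshold. With the mesenchyme marker score described further on as a covariate, the cluster value was -0.75 (adjusted p = 0.00863).

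Jag2 differed by cell type at both GFP states, and by GFP in endothelium. It had 9.87, 13.7 and 10.3 FPKM in HC GFP+ and 7.29, 10.5 and 6.67 in HC GFP−, against 32.8, 29.4 and 32.4 in EC GFP+ and 20.2, 19.8 and 16.0 in EC GFP−. The EC groups did not overlap each other or the clusters, and the HC groups overlapped. Jag2 rose 1.69-fold in EC GFP+ relative to EC GFP− (log2 0.73 ± 0.16 SE, adjusted p = 0.0147) and was 0.43 ± 0.16 on the log2 scale in clusters (adjusted p = 0.200). The endothelial call was lost without the first or the third EC GFP+ library (0.70 and 0.71), without the third EC GFP− library (0.63) and once the mesenchyme score was a covariate (0.53, adjusted p = 0.0597).

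Among the targets, Hey2 had the largest GFP difference of the 10 genes in endothelium. Hey2, a repressor known from arterial endothelium and heart, had 2.96, 2.23 and 3.82 FPKM in HC GFP+ and 1.52, 0.762 and 1.80 in HC GFP−, against 22.1, 25.1 and 22.1 in EC GFP+ and 2.40, 3.71 and 2.96 in EC GFP−. The EC GFP+ libraries stood far above the other 9, HC GFP+ overlapped EC GFP−, and the HC GFP− libraries were the lowest, 1 of them under 1 FPKM. Hey2 was 7.64-fold higher in EC GFP+ than in EC GFP− (log2 2.59 ± 0.20 SE, adjusted p = 1.67e-05). In clusters the groups did not overlap, and the log2 fold change of 0.77 ± 0.20 SE missed the threshold (adjusted p = 0.0603). It passed under quantile normalization (0.79) and without the second HC GFP+ library (0.91).

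Hey1, the close relative of Hey2, did not share its pattern. It had 9.33, 11.1 and 12.2 FPKM in HC GFP+ and 11.6, 15.9 and 13.998 in HC GFP−, against 56.3, 47.2 and 50.1 in EC GFP+ and 47.5, 43.8 and 36.2 in EC GFP−. Both GFP states overlapped within each cell type, and every endothelial library was above every cluster library. The GFP log2 fold changes were -0.32 in clusters (adjusted p = 0.271) and 0.27 in endothelium (adjusted p = 0.233), and the endothelial value passed with libraries scaled to an equal FPKM sum (0.47, adjusted p = 0.0464).

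Hes1, a target in many tissues, was the most even of the 4. It had 33.8, 44.9 and 26.7 FPKM in HC GFP+ and 44.0, 52.2 and 47.6 in HC GFP−, against 51.4, 45.5 and 48.8 in EC GFP+ and 60.2, 54.6 and 53.3 in EC GFP−. The EC groups did not overlap, EC GFP− being higher, while the HC groups overlapped in the second HC GFP+ library. Its GFP log2 fold changes were -0.47 in clusters (adjusted p = 0.128) and -0.20 in endothelium (adjusted p = 0.417), and the cluster value passed without that library (-0.65).

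Heyl, a target known from vascular smooth muscle as well as endothelium, was near the low end of the tested genes and varied within groups. It had 2.70, 1.35 and 2.84 FPKM in HC GFP+ and 4.40, 1.61 and 7.31 in HC GFP−, against 1.64, 0.996 and 1.78 in EC GFP+ and 2.80, 1.12 and 3.04 in EC GFP−. All neighbouring groups overlapped, no comparison passed the threshold, and the GFP log2 fold changes were -0.60 ± 0.40 SE in clusters (adjusted p = 0.497) and -0.38 ± 0.40 SE in endothelium (adjusted p = 0.573). In each population the second library was the lowest in Heyl, and it was also the lowest in the summed level of 14 smooth muscle and mesenchyme markers. That sum was 626, 287 and 373 FPKM in HC GFP+ and 1462, 490 and 1460 in HC GFP−, against 380, 276 and 558 in EC GFP+ and 1049, 329 and 1399 in EC GFP−. With the marker score as a covariate the Heyl GFP values were 0.14 in clusters and 0.27 in endothelium. The part of these cells in the Heyl level was not tested.

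**Figure D2:**
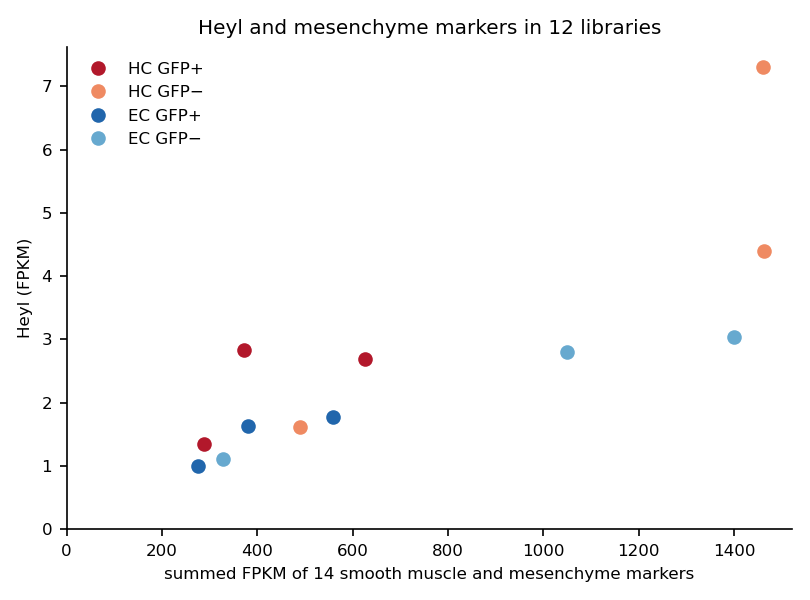
Heyl FPKM (vertical axis) against the summed FPKM of 14 smooth muscle and mesenchyme markers (horizontal axis), 1 point a library, coloured by population. The HC GFP− libraries at 4.40 and 7.31 FPKM of Heyl are those with marker sums of 1462 and 1460, and the lowest point of each population in both measures is its second library.

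Counted over the 10 genes, 1 was higher and 0 lower in HC GFP+ than in HC GFP−, beside 2.98% and 1.28% of all tested genes. In endothelium 3 were higher and 0 lower in GFP+ cells, beside 6.96% and 6.51%. The median log2 fold change of the 10 was -0.22 in clusters, against 0.00 over all tested genes, and 0.33 in endothelium, against -0.03. At an unadjusted p under 0.05 the numbers were 6 of 10 in clusters, beside 17% of all tested genes, and 4 of 10 in endothelium, beside 28.7%. Scaling the libraries to an equal FPKM sum moved the median of all genes in endothelium to 0.14 and the share of calls that were higher to 87.0%, compared with 51.6% as deposited. Jag1, Jag2 and Hey2 were called higher in EC GFP+ under that scaling also, joined by Notch1 and Hey1. Over all 13278 tested genes, 1917 were then called higher, compared with 924 as deposited.

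Other marker lists moved with GFP as well. The 6 endothelial markers summed to 2334 to 2448 FPKM in EC GFP+ against 1458 to 1838 in EC GFP−, without overlap. All 6 had the higher mean in EC GFP+, from Esam at 262 against 208 FPKM to Tek at 178 against 78.6. In clusters their sums overlapped, at 1583 to 1789 in HC GFP+ against 1216 to 1658 in HC GFP−. The 8 erythroid markers summed to 819 to 1136 FPKM in HC GFP+ against 6224 to 9542 in HC GFP−, and to 930 to 2371 in EC GFP+ against 3287 to 7624 in EC GFP−. The neural list was higher in GFP+ cells through 1 gene, Stmn2, at 69.3 ± 5.5 FPKM in HC GFP+ against 11.9 ± 0.7 in HC GFP−, and 159 ± 19 in EC GFP+ against 35.0 ± 4.2 in EC GFP− (SD, n = 3 each), while its other 6 genes summed to between 3.37 and 8.07 in every library. The part of the endothelial, erythroid and neural lists in the GFP differences of Jag1, Jag2 and Hey2 was not tested.

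**Figure D3:**
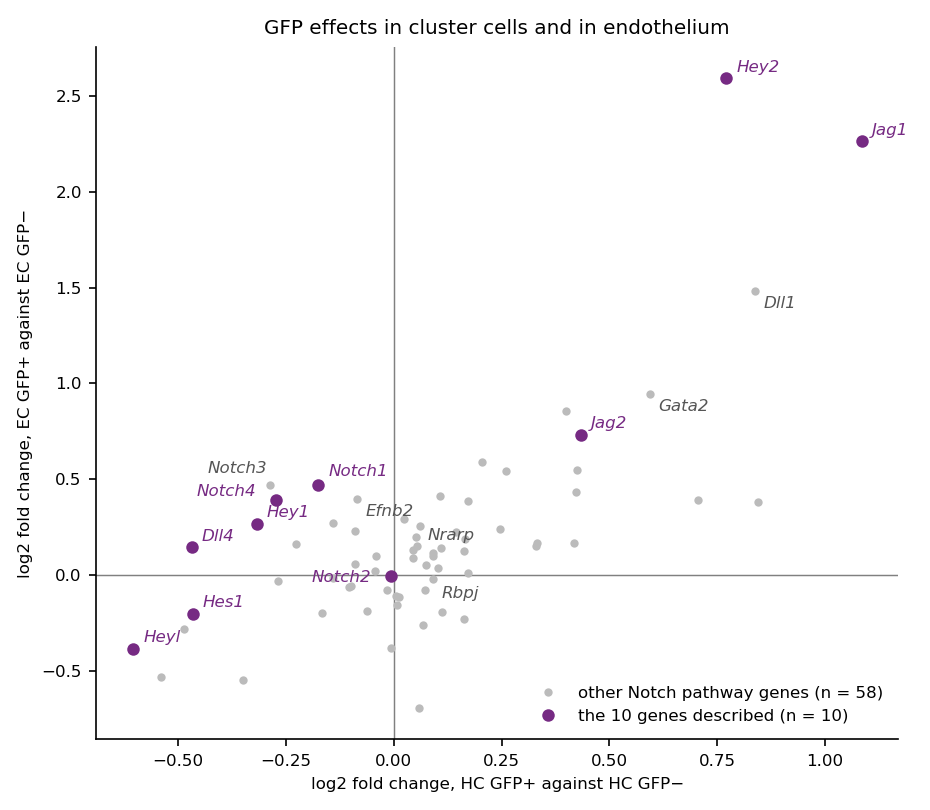
Log2 fold change of GFP+ over GFP− in cluster cells (horizontal axis) against the same in endothelial cells (vertical axis), for the 10 genes and 58 other Notch pathway genes. Jag1 lies at 1.08 and 2.27 and Hey2 at 0.77 and 2.59, away from Dll4, Hey1, Notch1 and Notch4, which are below 0 in clusters and above 0 in endothelium without passing either test.

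The size of the GFP difference itself differed between the cell types for 2 of the 10 genes, both smaller in clusters. The log2 GFP effect in HC minus that in EC was -1.18 ± 0.17 SE for Jag1 (adjusted p = 0.0125) and -1.82 ± 0.29 SE for Hey2 (adjusted p = 0.0181). Over all tested genes 0.339% were lower and 0.188% higher in this difference. None of the 10 was higher, and at an unadjusted p under 0.05 there were 6, all below 0, beside 11.5% of all tested genes in either direction. Besides Jag1 and Hey2 these were Notch1 at -0.65, Notch4 at -0.67, Dll4 at -0.61 and Hey1 at -0.59, with adjusted p-values between 0.257 and 0.371. The median of the 10 was -0.60, against 0.04 over all tested genes. With libraries scaled to an equal FPKM sum the median of all genes was -0.10 and the share of calls that were higher was 18.9%, compared with 35.7% as deposited. The Jag1 difference held in all 19 alternatives. The Hey2 difference lost its call with a pseudocount of 0.1 (-1.78, adjusted p = 0.110) and without any 1 of 8 libraries, where it lay between -1.85 and -1.68 with adjusted p-values of 0.0517 to 0.0589. Those were the first and second HC GFP+, the first and the third HC GFP−, all 3 EC GFP+ and the first EC GFP− libraries.

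Ratios within a library do not depend on how libraries are scaled to one another. The ratio of Jag1 to Dll4 FPKM was 1.54, 1.19 and 1.36 in HC GFP+ against 0.426, 0.354 and 0.500 in HC GFP−, and 1.04, 0.995 and 1.15 in EC GFP+ against 0.200, 0.240 and 0.237 in EC GFP−. Within each cell type the GFP+ libraries did not overlap the GFP− ones, and the highest ratios were in HC GFP+, where Jag1 exceeded Dll4 in all 3 libraries. With 3 libraries against 3 an exact permutation test cannot give a p below 0.1, so no p is given for the ratios. Jag1 made up 41.9 ± 3.5% of the summed FPKM of the 3 ligands in HC GFP+ against 22.7 ± 3.3% in HC GFP−, and 38.8 ± 1.5% in EC GFP+ against 13.6 ± 1.2% in EC GFP− (SD, n = 3 each). Dll4 made up 30.9 ± 1.6% in HC GFP+ against 53.4 ± 1.5% in HC GFP−, and 36.7 ± 1.4% in EC GFP+ against 60.25 ± 1.25% in EC GFP−. By the means, the share of Jag1 was larger than that of Dll4 in GFP+ populations and smaller in GFP− populations. The summed ligand level differed by cell type, at 41.2 ± 4.0 and 33.9 ± 6.4 FPKM in HC GFP+ and HC GFP−, and 129 ± 6 and 71.6 ± 11.2 FPKM in EC GFP+ and EC GFP−. The sum leaves out Dll1, a further Delta-like ligand, whose mean in HC GFP+ was 21.5 FPKM, above the 17.2 FPKM of Jag1. In EC GFP+ it was 24.1 FPKM, below the 50.2 FPKM of Jag1.

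For the targets, the ratio of Hey2 to Hey1 was 0.317, 0.200 and 0.314 in HC GFP+ against 0.131, 0.048 and 0.128 in HC GFP−, and 0.394, 0.532 and 0.440 in EC GFP+ against 0.0506, 0.0847 and 0.0816 in EC GFP−. GFP+ and GFP− libraries again did not overlap within either cell type, and Hey1 exceeded Hey2 in all 12 libraries. Hes1 made up 67.7 ± 8.4% and 71.0 ± 3.4% of the summed FPKM of the 4 targets in HC GFP+ and HC GFP−, against 39.0 ± 0.7% and 54.0 ± 1.6% in EC GFP+ and EC GFP−. Hes1 was thus the main part of the target sum in clusters and, at a smaller share, in EC GFP−, where the mean of Hey1 was 42.5 FPKM beside 56.0 FPKM of Hes1. In EC GFP+ the mean of Hey1 was 51.2 FPKM beside 48.5 FPKM of Hes1. The ratio of Notch4 to Notch1 was above 1 in all 12 libraries, at 1.45 ± 0.09 in HC GFP+, 1.58 ± 0.36 in HC GFP−, 2.08 ± 0.27 in EC GFP+ and 2.22 ± 0.34 in EC GFP−.

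**Figure D4:**
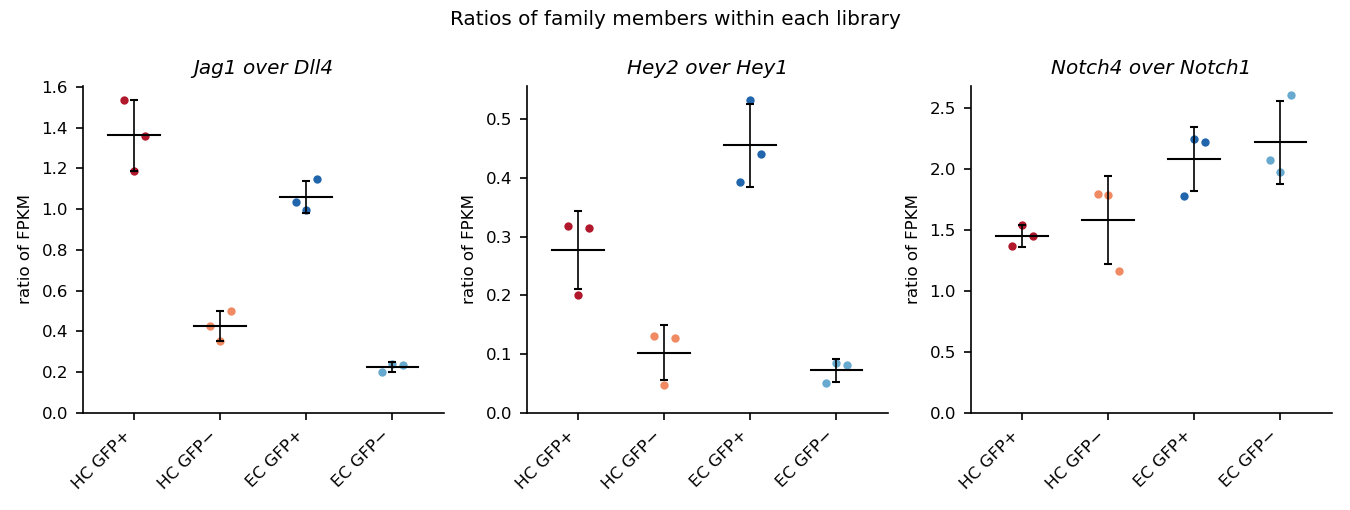
Ratios of Jag1 to Dll4, Hey2 to Hey1 and Notch4 to Notch1 FPKM (vertical axes) in each library of the 4 populations, with a wide bar for the mean and error bars of 1 SD. For Jag1 to Dll4 and Hey2 to Hey1 the 3 GFP+ libraries of a cell type lie above its 3 GFP− libraries.

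Cluster cells were set against endothelium of the same GFP state. In HC GFP+ against EC GFP+, 7 were lower and 0 higher, where 6.09% of all tested genes were lower and 8.21% higher. The log2 fold changes were -2.61 for Hey2, -2.14 for Hey1, -1.82 for Dll4, -1.49 for Jag1, -1.42 for Jag2, -1.38 for Notch4 and -0.86 for Notch1, with adjusted p-values between 9.97e-06 and 0.00491. These 7 calls held in every alternative. Of the remaining genes, Hes1 was at -0.49 (adjusted p = 0.0532), which passed under quantile normalization (-0.51) and without the second HC GFP+ library (-0.67), Notch2 at 0.52 (adjusted p = 0.159) and Heyl at 0.40 (adjusted p = 0.568). With the mesenchyme score as a covariate Notch2 passed as higher in HC GFP+ (0.45). At an unadjusted p under 0.05 there were 9 of 10, beside 27.8% of all tested genes. Under quantile normalization 47.1% of all calls were higher, compared with 57.4% as deposited.

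In HC GFP− against EC GFP−, 3 were lower and 0 higher, where 1.93% of all tested genes were lower and 2.36% higher. These were Hey1 at -1.55 (adjusted p = 0.00047), Dll4 at -1.21 (adjusted p = 0.00363) and Jag2 at -1.12 (adjusted p = 0.00661), and their calls held in every alternative. Hey2 at -0.78 (adjusted p = 0.0548) and Notch4 at -0.71 (adjusted p = 0.0612) missed the threshold. Hey2 passed with a pseudocount of 0.1 (-1.15), under quantile normalization (-0.91) and without the second or the third HC GFP+ library, and Notch4 without the second HC GFP− library (-0.91). Jag1 was at -0.31 (adjusted p = 0.180), Notch1 and Hes1 both at -0.22, Notch2 at 0.52 and Heyl at 0.62. At an unadjusted p under 0.05 there were 7 of 10, beside 19.2% of all tested genes. The median over the 10 genes was -1.40 in the GFP+ comparison, against 0.05 over all tested genes, and -0.51 in the GFP− comparison, against 0.01. Scaling to an equal FPKM sum moved the last value to 0.14 and the share of calls that were higher to 81.8%, compared with 55.0% as deposited.

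These comparisons share their libraries with the GFP comparisons and are not independent of them. The summed level of the 6 endothelial markers was also lower in HC GFP+ than in EC GFP+, as the ranges given with the marker lists show. The ranges of HC GFP− and EC GFP− overlapped. Pecam1 (CD31, a sort marker) averaged 270 and 236 FPKM in HC GFP+ and HC GFP−, against 424 and 328 FPKM in EC GFP+ and EC GFP−. In GFP− cells Tek had the higher mean in clusters, at 83.2 FPKM against 78.6 in endothelium, and Kdr was at 199.6 against 202.9. The 8 macrophage markers summed to 215 to 1333 FPKM in HC GFP+ and 222 to 727 in HC GFP−, against 7.94 to 28.8 in EC GFP+ and 9.91 to 15.4 in EC GFP−, and none of them was at 0 in all 12 libraries. The part of other cells in the lower Notch pathway levels of clusters was not tested.

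**Figure D5:**
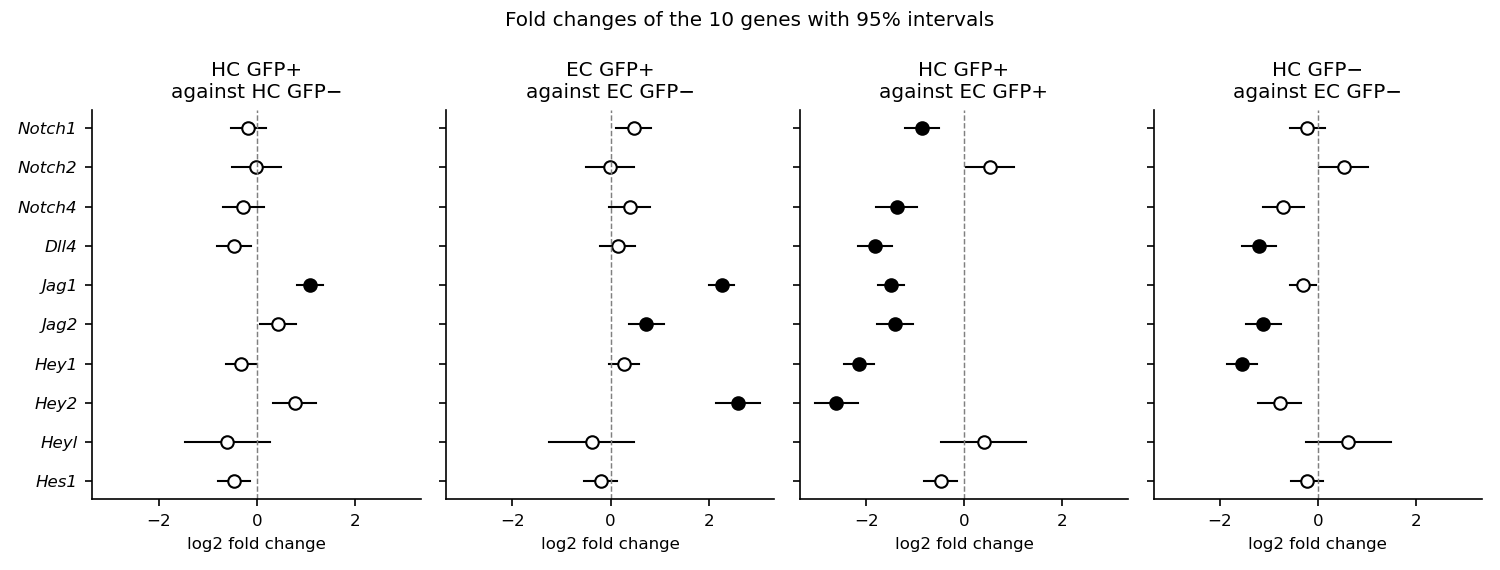
Log2 fold changes of the 10 genes with 95% intervals in the 4 group comparisons, filled where the limma adjusted p was under 0.05. Jag1 is filled on the right in both GFP comparisons, and 7 and 3 genes are filled on the left in the GFP+ and the GFP− comparison of HC with EC.

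Beyond the 10 genes, 68 other genes of the pathway were listed by role, and 58 of them were tested. In clusters 3 were higher (5.17%, beside 2.98% of all tested genes) and 0 lower in GFP+ cells, with a median of 0.06. In endothelium 7 were higher (12.1%, beside 6.96%) and 2 lower (3.45%, beside 6.51%), with a median of 0.12. At an unadjusted p under 0.05 there were 14 in clusters, 24.1% beside 17% of all tested genes, and 18 in endothelium, 31% beside 28.7%, so the unadjusted share in endothelium was near that of all genes. Dll1, another Delta-like ligand, had 24.9, 22.2 and 17.2 FPKM in HC GFP+ against 12.1, 12.4 and 9.98 in HC GFP−, and 22.9, 27.3 and 22.0 in EC GFP+ against 6.78, 7.97 and 9.26 in EC GFP−. Its libraries did not overlap by GFP in either cell type, and unlike Jag1 its levels in HC GFP+ and EC GFP+ overlapped. The log2 fold change of Dll1 was 0.84 ± 0.15 SE in clusters (adjusted p = 0.0100) and 1.48 ± 0.15 SE in endothelium (adjusted p = 0.00013), and both calls held in every alternative.

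Gata2, a transcription factor of blood stem cells that is a known Notch target in the mouse aorta, had 28.3, 29.9 and 27.2 FPKM in HC GFP+ against 17.9, 21.3 and 16.6 in HC GFP−, and 35.9, 35.8 and 34.4 in EC GFP+ against 17.3, 21.7 and 15.3 in EC GFP−. The GFP+ and GFP− libraries did not overlap in either cell type. The log2 fold change was 0.59 ± 0.12 SE in clusters (adjusted p = 0.0190) and 0.94 ± 0.12 SE in endothelium (adjusted p = 0.00059). The cluster call was lost with the mesenchyme score as a covariate (0.38, adjusted p = 0.0589), without the first or second HC GFP+ library (0.60 and 0.56) and without the first or the third HC GFP− library (0.57 and 0.52). The third cluster call was Dtx3l, a relative of the Deltex ubiquitin ligases (0.70, adjusted p = 0.0410), and it was lost in 14 of 19 alternatives.

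Of the 9 tested genes that process receptors, 4 were higher and 0 lower in EC GFP+ than in EC GFP−, beside 6.96% and 6.51% of all tested genes. They were Ncstn, Psen2 and Aph1b, which encode parts of the gamma-secretase that releases the intracellular domain, at log2 fold changes of 0.54, 0.86 and 0.59, and Furin, the protease that cuts the receptor on its way to the surface, at 0.41. Ncstn had 60.4, 63.8 and 63.9 FPKM in EC GFP+ against 48.5, 43.4 and 37.1 in EC GFP−, with no overlap. The Aph1b call was lost without any of 4 libraries in turn and in 2 further alternatives. Tle4, a corepressor, was also higher (0.43), a call lost in 13 alternatives. The 2 lower genes were Ccnd1, which encodes cyclin D1, at -0.55 and Snw1, an RBPJ partner, at -0.26. Equal FPKM sums left Ccnd1 at -0.35 (adjusted p = 0.0521). None of these genes differed in its GFP effect between the cell types at an adjusted p of 0.05, and 8 of the 58 (13.8%, beside 11.5% of all tested genes) had an unadjusted p under 0.05 in that difference, where the median was -0.03.

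In HC GFP+ against EC GFP+, 5 of the 58 genes were higher (8.62%, near the 8.21% of all tested genes) and 7 lower (12.1%, beside 6.09%), with a median of 0.05, beside 0.05 over all tested genes. Efnb2, which encodes the arterial marker ephrin-B2, averaged 46.1 ± 6.7 FPKM in HC GFP+ and 48.8 ± 5.5 in HC GFP−, against 101 ± 3 in EC GFP+ and 77.1 ± 13.3 in EC GFP− (SD, n = 3 each). Nrarp, a feedback inhibitor induced by Notch, averaged 40.4 ± 4.2 and 39.2 ± 7.8 FPKM in HC GFP+ and HC GFP−, against 66.7 ± 9.3 and 59.8 ± 6.7 in EC GFP+ and EC GFP−. Both fell in HC GFP+ relative to EC GFP+, by 1.12 and 0.71 on the log2 scale, as did Notch3, the remaining receptor, by 0.73, at 6.89 ± 1.43 FPKM in HC GFP+ against 11.95 ± 0.12 in EC GFP+. Furin and Aph1b also fell, by 0.56 and 0.78. Rbpj, the DNA-binding partner of all 4 receptors, went the other way, with 23.7, 17.0 and 22.6 FPKM in HC GFP+ against 12.8, 11.5 and 13.6 in EC GFP+, a log2 fold change of 0.69 ± 0.14 SE (adjusted p = 0.00648). Of the 21 tested genes of the nuclear complex and its cofactors, 5 were higher and 1 lower in HC GFP+, Rbpj, Tle2, Tle4, Cir1 and Snw1 against Tle3, beside 8.21% and 6.09% of all tested genes. The Tle4 call was lost without the first or the second HC GFP+ library (0.48 and 0.41) and without the first or the second EC GFP+ library (0.49 and 0.50). The calls of Efnb2, Nrarp, Notch3 and Rbpj in this comparison held in every alternative.

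In HC GFP− against EC GFP−, 2 of the 58 were higher, Rbpj (0.58) and Tle4 (0.52), and 3 lower, Efnb2 (-0.64), Nrarp (-0.61) and Lfng (-0.57), which encodes a glycosyltransferase that modifies Notch receptors. These are 3.45% and 5.17% of the 58, beside 2.36% and 1.93% of all tested genes. The median of the 58 was 0.04. Rbpj had 22.4, 16.6 and 20.3 FPKM in HC GFP− against 12.5, 12.5 and 13.4 in EC GFP−, so that clusters lay above endothelium at both GFP states. All 5 calls were lost in some alternatives, 9 of 20 for Rbpj, 12 for Tle4, 15 for Nrarp, 8 for Efnb2 and 7 for Lfng. Leaving out 1 library in turn gave 0.49 to 0.69 for Rbpj, -0.75 to -0.47 for Nrarp and -0.75 to -0.51 for Efnb2.

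Genes with the most similar profile over the 12 libraries were sought among 8781 others with a mean of 5 FPKM or more, by the root mean square difference of centred log2(FPKM + 1), and are given for Jag1, Hey2, Dll4 and Hey1. For Jag1 they were Ass1 (0.27), Mall (0.28) and Ctsh (0.29), compared with a spread of 1.0 of Jag1 about its own mean. Ass1, an enzyme of arginine synthesis, averaged 32.4 ± 1.9 FPKM in HC GFP+ against 9.76 ± 0.92 in HC GFP−, and 79.5 ± 11.0 in EC GFP+ against 14.9 ± 0.9 in EC GFP− (SD, n = 3 each), the same order as Jag1. For Hey2, whose own spread was 1.30, they were Ltbp4 (0.32), Tm4sf1 (0.38) and Fbln5 (0.41), of which Ltbp4 and Fbln5 are matrix proteins of elastic fibres. Ltbp4 averaged 21.1 ± 2.9 FPKM in HC GFP+ against 8.96 ± 1.22 in HC GFP−, and 136 ± 10 in EC GFP+ against 18.7 ± 4.1 in EC GFP−.

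For Dll4, with a spread of 0.80, the nearest were Sema7a (0.22), Efna1 (0.29) and Id1 (0.34), and for Hey1, with a spread of 0.95, they were Sema7a (0.17), Cxcr4 (0.29) and Pdgfd (0.45). Sema7a, a membrane-bound semaphorin, thus stood first for both, with 4.202 ± 0.593 FPKM in HC GFP+ and 4.80 ± 1.02 in HC GFP−, against 17.2 ± 1.1 in EC GFP+ and 18.2 ± 1.9 in EC GFP−. Cxcr4, a chemokine receptor, averaged 8.14 ± 2.87 and 8.07 ± 1.18 FPKM in HC GFP+ and HC GFP−, against 29.0 ± 3.0 and 34.2 ± 1.5 in EC GFP+ and EC GFP−. Such likeness describes these 12 libraries, which share their populations, and carries no test.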

How the data were processed

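The authors deposited gene-level FPKM for each library. The tools named are Cufflinks, featureCounts, edgeR and DESeq, and the genome build is mm9, per the submitters' processing notes, which give neither roles nor versions. The aligner, annotation, strand setting and scaling of libraries to one another: not given in the sources used here. FPKM carries no read numbers, so depth is unknown, no counting interval is given and count models were not used. Of 33531 genes, 11654 were listed at 0 in every library, and a 0 can be a failed estimate.

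The 13278 genes that reached 1 FPKM in 3 or more libraries were fitted with limma 3.58.1 (R 4.3.3) on log2(FPKM + 1), as 1 model of 12 libraries with 4 group means, 8 residual degrees of freedom and empirical Bayes moderation with an intensity trend. For each of 5 comparisons, two-sided p-values were adjusted by Benjamini-Hochberg over the fitted genes, with a threshold of 0.05. The fit was tested on simulated data. The labels call the pools independent biological samples, and the p-values reflect the spread among them.

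The 10 genes, the pathway lists and the marker lists were chosen with earlier results of these data known, so counts over them are descriptions. Named pathway genes were Notch3, Dll1, Rbpj, Nrarp, Efnb2 and Gata2 whatever their values. To these were added, per comparison, the up to 4 listed genes past the threshold with the smallest adjusted p. Psen2, Tle2, Tle3, Cir1 and Snw1 were named after their values were seen. So were Aph1b, Furin and Tle4 in comparisons where they were not among those 4. Profile neighbours were the 3 nearest. Alternatives were a pseudocount of 0.1, no filter, a mean of 5 FPKM or more, equal FPKM sums, quantile normalization, only the groups compared, the replicate number as a block, the mean log2 level of the mesenchyme markers as a covariate, and each library left out; those for other pathway genes were added after seeing the data. Promoters are RefSeq entries on GRCm38.p6 and were matched by symbol. Python 3.11.15 with pandas 2.3.3 prepared the tables.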

Additional observations from a re-analysis of the deposited data

Results flagged for a closer look

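In 2 genes the GFP+ to GFP− difference was itself unlike between clusters and endothelium by a direct test in the limma model. For Jag1 the log2 effect in HC minus that in EC was -1.18 (limma adjusted p = 0.0125), and for Hey2 it was -1.82 (adjusted p = 0.0181), both smaller in clusters. The Jag1 call held in all 19 alternatives, whereas the Hey2 call was lost in 9 of 19. For both genes every GFP+ library lay above every GFP− library in each cell type, which describes the GFP effects and not their difference.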

How the results depend on the processing

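Of 16 calls among the 10 genes, 14 kept direction and call in every alternative and none reversed; the exceptions, Jag2 in endothelium and the Hey2 difference of effects, are given with their values above. Of 34 uncalled results, 9 passed in some alternative and 7 changed sign. As computed first, 566, 1789, 1898, 569 and 70 genes passed in HC GFP+ against HC GFP−, EC GFP+ against EC GFP−, HC GFP+ against EC GFP+, HC GFP− against EC GFP− and the difference of GFP effects, and 1, 3, 7, 3 and 2 of the 10 genes. A pseudocount of 0.1 gave 39 genes and 1 of the 10 in the difference. No filter gave 332 in HC GFP− against EC GFP−. The stricter filter, which left out Notch2 and Heyl, gave 363 in clusters and 39 in the difference. Equal FPKM sums gave 5 of the 10 in endothelium, where 1917 of all tested genes were higher and 286 lower, and 148 genes in the difference. Quantile normalization gave 2 of the 10 in clusters. Fitting only the libraries compared gave 939 in endothelium and 284 in HC GFP− against EC GFP−, and could not be done separately for the difference, which needs all 4 groups. The mesenchyme covariate gave 2 of the 10 in clusters, 1183 genes in endothelium and 132 in the difference. Leaving out 1 library gave 321 to 654 genes in clusters, with 1 to 3 of the 10, 1004 to 2203 in endothelium, 1261 to 2090 in HC GFP+ against EC GFP+, 91 to 698 in HC GFP− against EC GFP−, and 23 to 77 in the difference, with 1 to 2 of the 10. The causes were not tested.

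Sign changes were among results that passed no test. Notch2 in clusters was 0.028 with equal sums and 0.40 with the covariate, and -0.25 to 0.17 leaving out 1 library. Notch2 in endothelium was 0.14 with equal sums, 0.033 under quantile normalization and 0.35 with the covariate, and -0.16 to 0.10 leaving out 1 library. Its difference of effects was 0.00013 with a pseudocount of 0.1 and 0.0506 with the covariate, and -0.24 to 0.18 leaving out 1 library. With the covariate Heyl was 0.14 in clusters and 0.27 in endothelium, where it was -0.60 and -0.38 without it, and Dll4 in endothelium was -0.10. Leaving out 1 library gave -0.67 to 0.16 for the Heyl difference and -0.0033 to 0.23 for Dll4 in endothelium.

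The labels do not say that a replicate number marks a shared pool or day, and the libraries were not treated as paired: 4 of 18 pairs had correlated deviations over 0.1 (-0.08 to 0.27), and a library matched its own number best in 20 of 36 cases, a hint from the data and not the design; the second libraries were also the lowest of each population in Heyl and in the mesenchyme sum. The replicate block kept the calls among the 10 genes. It added Notch2 in HC GFP+ against EC GFP+ (0.52, adjusted p = 0.049) and Notch4 in HC GFP− against EC GFP− (-0.71, adjusted p = 0.0382).

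Depth is unknown, so the counting error of low values, such as Hey2 outside EC GFP+, Heyl and Notch2, is unknown. Single symbols with FPKM do not separate isoforms, and the pools are mixtures of cells.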
